A study of Mus musculus with 2 samples.

Results

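Messenger RNA of 49 nucleolar ribosome assembly factors was followed in mouse liver, in 1 untreated library and 1 library from TSA treatment. The members were taken by gene symbol from a list chosen with earlier results of these data known. All 49 were found among the 21878 symbols of the count tables. Both livers came from FVB/N mice that had received c-Myc through hydrodynamic injection, in which fast filling of the tail vein carries DNA into hepatocytes, so the untreated control carries the injected c-Myc too. The submitters describe the system as a model of hepatocellular carcinoma driven by c-Myc. The labels give liver as the tissue and do not state tumour or whole liver, single animal or pool, nor the dose or duration of TSA. Whether the samples are independent animals is therefore unknown, and no difference below was checked in a replicate.

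Ribosomes are built in the nucleolus, where RNA polymerase I transcribes the ribosomal DNA into a long precursor. Small nucleolar RNAs bound to core proteins (snoRNPs) guide chemical modification of that precursor, and large sets of assembly factors fold, cut and trim it into the small and large subunits. MYC is a transcription factor known to drive many genes of this pathway, and nucleolar size and number have long been used as a sign of rapid growth in liver tumours.

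The libraries were similar in depth, with 17281523 counts (untreated) and 17088227 counts (TSA). Reads were scaled between libraries by the trimmed mean of M values (TMM), and levels within a library are deposited FPKM, which divide counts by the length of the gene model and by the library total. A gene was called lower or higher when its levels differed by at least 2-fold and the 95% interval of the ratio left out 1, a rule of size and not a test. That interval covers counting error only, with no variation between animals, and without molecular identifiers reads need not be separate molecules. Of all 13027 genes with at least 20 summed counts, 27.4% were called lower and 26.0% higher with TMM. Scaled to total counts, the shares were 48.7% and 16.0%, and the marker counts below stand against these. Hepatocyte markers were present in both libraries: all 10 had counts, and their summed level was 6450 CPM untreated and 158000 CPM with TSA. Most of the TSA sum came from *Alb*, at 1964 CPM untreated and 112100 CPM with TSA. By TMM all 10 were called higher. Scaling to total counts left 9 of them called higher, and *Hnf4a* uncalled. Markers of cycling cells moved with the assembly factors, with 8 of 8 lower and a summed level of 1890 CPM untreated and 84.7 CPM with TSA. The summed markers of endothelial cells (88.8 and 497 CPM), Kupffer cells (139 and 436 CPM), stellate cells (184 and 468 CPM) and erythroid cells (69.4 and 351 CPM) moved the other way. Among these, 6 of 7 endothelial, 5 of 6 Kupffer, 4 of 6 stellate and 4 of 4 erythroid markers with enough counts were higher with TMM, and 4, 3, 3 and 4 with total counts. The markers of most untreated counts in 2 of these lists went against their sums under both scalings. The Kupffer marker *Cd68* had 1654 counts untreated and 265 with TSA, 3.42-fold lower, and the stellate marker *Col1a1* had 3122 and 279, 6.13-fold lower. They were the sole lower calls of these 4 lists with TMM, and with total counts the stellate marker *Pdgfrb* (565 and 260 counts) was lower too. These 3 markers are named after their values were seen. Cholangiocyte markers had like sums with TMM (49.1 and 50.7 CPM) that held opposite shifts, with 2 lower and 3 higher of 5. Total counts shift every log2 ratio down by 0.85, so by that scaling their sum was lower with TSA. *Krt7* (577 counts untreated and 10 with TSA) and *Epcam* (472 and 21) were lower. *Spp1* (76 and 545), *Krt19* (9 and 54) and *Sox9* (6 and 15) were higher with TMM, and *Sox9* was not called with total counts. Lymphocyte markers (23.9 and 36.5 CPM, 2 higher of 5) were scarce in both. In the TSA library *Cftr* and *Hba-a2* had no counts. The part of these shifts in the results below was not tested, and fewer cells of a type cannot be told apart from less RNA per cell.

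The assembly factors, a list chosen with earlier results known, were lower in the TSA library as a group. Of the 49 members 47 were lower and 0 were higher, where 27.4% of all 13027 genes tested were lower and 26.0% were higher. Scaled to total counts, 49 of 49 were lower against a background of 48.7%, with 16.0% of all genes higher. The median log2 ratio of the members was -2.13, a 4.36-fold lower level, and that of all genes tested was -0.11. Total counts shift every log2 ratio down by 0.85, and gave medians of -2.98 and -0.96. A difference of at least 4-fold was found in 29 of 49 members against 12.6% of all genes. At 8-fold the count was 5 of 49 members against 6.59%, near the share over all genes. The 5 were *Rrp1b*, *Npm1*, *Ppan*, *Ncl* and *Dkc1*. The members had between 753 and 47873 counts each without treatment and between 65 and 3030 with TSA, so every one was well above the minimum of 20 summed counts.

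**Figure D1:**
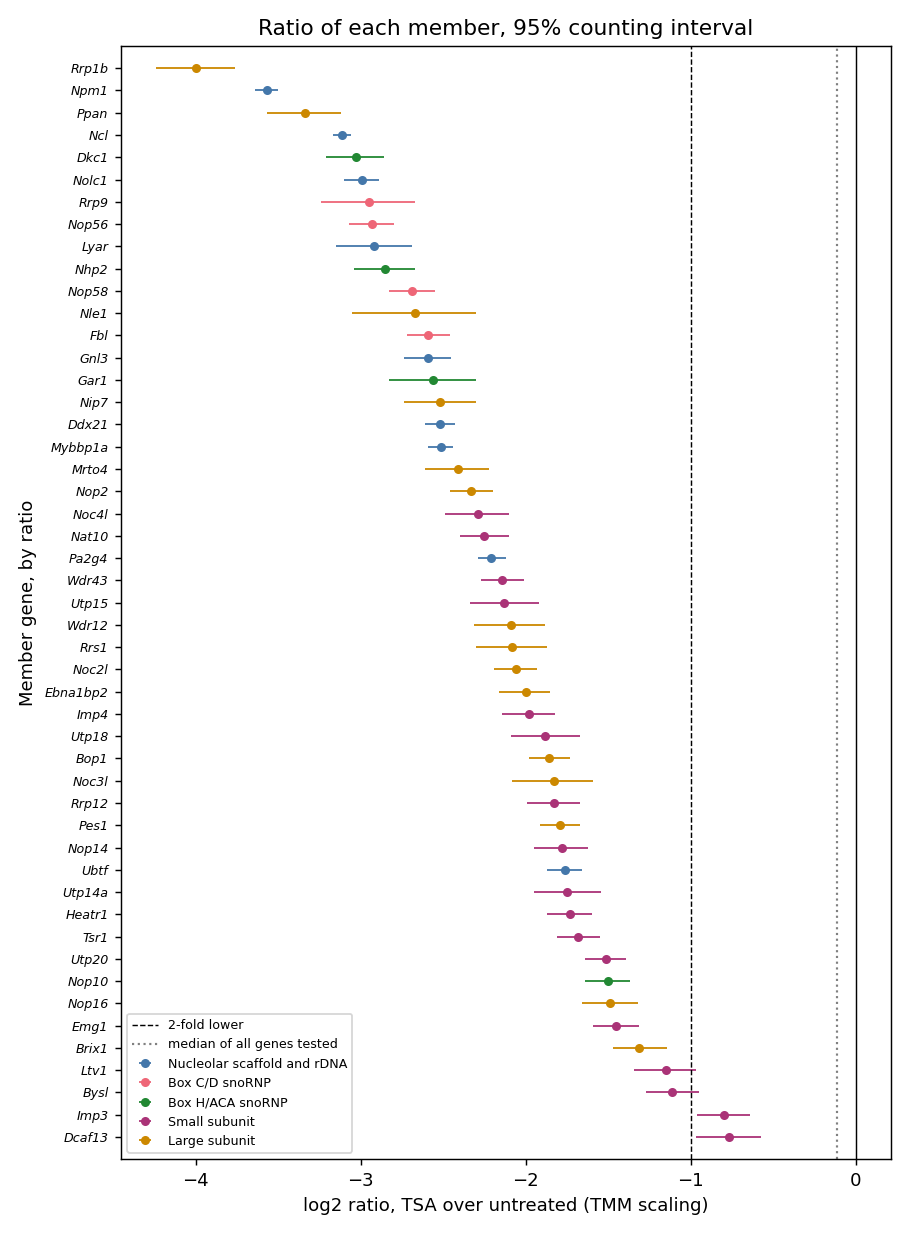
Log2 ratio of TSA over untreated for each of the 49 members with TMM scaling (x axis), ordered by ratio (y axis) and coloured by role. Bars are 95% counting intervals, the dashed line marks 2-fold lower and the dotted line the median of all genes tested (-0.11). Every point lies left of 0, from -0.77 for Dcaf13 to -4.00 for Rrp1b, and Imp3 and Dcaf13 alone lie right of the dashed line.

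The sequence before the annotated start was examined because the members moved together and MYC with its partner MAX binds the letters CACGTG. RefSeq windows from 250 bases before to 50 bases after the start (assembly GRCm38.p6) were at hand for 43 members, in 52 windows. *Npm1*, *Fbl*, *Rrs1*, *Bop1*, *Rrp12* and *Dcaf13* had no entry. The 3 members with CACGTG before the start are printed with *Ncl*, the member of most untreated counts, which was added after its values were seen. Each line gives the 250 bases before the start, read 5′ to 3′ on the strand of the gene. Capitals mark CACGTG and the letters CCGGAAG, which ETS factors can bind; matches of the different motifs did not overlap in these windows.
Nop2, chr6:125131633-125131882, plus strand: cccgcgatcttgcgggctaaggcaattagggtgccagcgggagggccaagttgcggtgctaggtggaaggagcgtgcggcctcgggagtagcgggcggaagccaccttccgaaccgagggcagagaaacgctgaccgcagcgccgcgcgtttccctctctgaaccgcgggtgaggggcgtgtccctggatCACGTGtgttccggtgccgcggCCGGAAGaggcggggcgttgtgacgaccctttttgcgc
Imp4, chr1:34439579-34439828, plus strand: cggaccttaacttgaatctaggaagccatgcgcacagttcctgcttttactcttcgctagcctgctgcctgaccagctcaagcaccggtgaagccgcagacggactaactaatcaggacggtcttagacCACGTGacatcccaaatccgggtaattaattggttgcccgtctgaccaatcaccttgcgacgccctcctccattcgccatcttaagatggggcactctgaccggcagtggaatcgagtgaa
Utp18, chr11:93885767-93886016, minus strand: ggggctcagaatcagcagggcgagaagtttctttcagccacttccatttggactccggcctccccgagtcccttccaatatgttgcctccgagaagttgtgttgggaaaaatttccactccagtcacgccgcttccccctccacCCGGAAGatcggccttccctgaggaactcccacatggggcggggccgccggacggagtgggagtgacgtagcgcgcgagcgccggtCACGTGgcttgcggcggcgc
Ncl, chr1:86359456-86359705, minus strand: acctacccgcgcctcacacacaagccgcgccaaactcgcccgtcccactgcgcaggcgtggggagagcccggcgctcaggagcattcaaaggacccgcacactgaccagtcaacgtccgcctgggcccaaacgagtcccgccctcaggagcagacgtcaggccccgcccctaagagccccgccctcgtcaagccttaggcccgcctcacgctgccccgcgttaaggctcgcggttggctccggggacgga

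In *Nop2* the CACGTG match began 60 bases before the start with CCGGAAG at 38 bases, in *Imp4* CACGTG lay at 121 bases, and in *Utp18* CACGTG lay at 20 bases with CCGGAAG at 106 bases. The *Ncl* window held neither motif in the 250 bases shown. Counting the first transcribed base as position 1, 7 further members had CACGTG after the start, at position 3 in *Pes1*, 18 in *Wdr43*, 24 in *Nle1*, 25 in *Tsr1*, 29 in *Ltv1*, 38 in *Utp20* and 41 in *Mybbp1a*. Over the whole 300-base window, CACGTG, which reads the same on both strands, was found in 10 of 43 members (23.3%). It was found in 8.09% of the 27025 genes of the table and in 11.5% of the 10035 tested genes with an entry. Before the start alone the shares were 6.98%, 6.86% and 9.71%. The related letters CACGCG, searched with the reverse complement CGCGTG, were in 15 members (34.9%), 10.5% of the table and 19.3% of tested genes with an entry. Before the start alone, its shares were 16.3%, 8.65% and 15.9%, so members and tested genes stood close. CCGGAAG, searched with CTTCCGG, was in 15 members (34.9%), 9.93% of the table and 19.1% of tested genes with an entry, and before the start alone in 23.3%, 7.83% and 15.0%. The median log2 ratio was -1.93 for members with CACGTG in the window and -2.25 for those without, a smaller difference for those with the letters. These matches describe letters in a window and are not measured binding sites.

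The nucleolar scaffold and ribosomal DNA genes stood highest. Their summed level, in which *Ncl* and *Npm1* weigh most, was 7.41-fold lower. All 9 were lower, by 3.4-fold to 11.9-fold, with a median log2 ratio of -2.59, which is above those of the box C/D and box H/ACA groups. *Npm1*, for nucleophosmin, a chaperone of the outer nucleolus, was read 37605 times (1267 FPKM) in the untreated library and 1737 times (59.2 FPKM) in the TSA library. That was the highest FPKM of any member in either library, and the level was 11.9-fold lower with TSA (95% interval 11.3 to 12.4). *Ncl*, for the RNA-binding protein nucleolin, was read 47873 times (318 FPKM) untreated and 3030 times (20.4 FPKM) with TSA. *Pa2g4*, for the growth-regulated protein EBP1 that binds ribosomal RNA precursors, went from 10736 counts (255 FPKM) to 1274 (30.7 FPKM), 4.62-fold lower (4.36 to 4.90). *Ubtf*, for the factor UBF that opens ribosomal DNA for RNA polymerase I, had 5543 counts (52.8 FPKM) against 894 (8.61 FPKM). It was 3.4-fold lower (3.17 to 3.65), the smallest difference of this group. *Npm1* was further down than *Ncl*, by 1.37-fold (1.29 to 1.46), a comparison within the libraries that no scaling moves.

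The remaining scaffold genes lay between these ends. *Nolc1*, for the snoRNP chaperone NOPP140, was 7.95-fold lower, and *Lyar*, for a nucleolar growth regulator, 7.55-fold lower. *Gnl3*, for the GTPase nucleostemin, was 6.03-fold lower, the helicase gene *Ddx21* 5.73-fold lower, and *Mybbp1a*, whose product acts in RNA polymerase I transcription and precursor processing, 5.71-fold lower. Without treatment these 5 genes ranged from 69.1 FPKM (*Lyar*) to 207 FPKM (*Mybbp1a*), and with TSA from 5.07 FPKM (*Lyar*) to 20.1 FPKM (*Mybbp1a*).

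Box C/D snoRNPs carry ribose methylation, and all 4 genes of this group were lower within a narrow span, 6.02-fold to 7.71-fold, with a median log2 ratio of -2.81, the lowest of the 5 roles. *Fbl*, for the methyltransferase fibrillarin, had 5940 counts (297 FPKM) untreated and 541 (27.3 FPKM) with TSA, 6.02-fold lower (5.51 to 6.58). The paired scaffold proteins of the particle had like counts: *Nop56* had 6662 untreated and 479 with TSA. *Nop58* had 5320 untreated and 452 with TSA. *Nop56* was 7.62-fold and *Nop58* 6.45-fold lower, and their ratios differed by 1.18-fold (1.03 to 1.35). *Nop58* and *Fbl* differed by 1.07-fold, with an interval (0.939 to 1.22) that holds 1. *Rrp9*, for a protein bound to the snoRNA that starts precursor cleavage, had 1562 counts untreated and 111 with TSA, 7.71-fold lower (6.36 to 9.43). The remaining core subunit of the particle is listed as *Nhp2l1* and is not a member. It had 3909 counts untreated and 484 with TSA and was 4.43-fold lower.

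Box H/ACA snoRNPs carry pseudouridylation, and the same core proteins also belong to telomerase. All 4 subunit genes were lower, with a median log2 ratio of -2.71, but not evenly. *Dkc1*, for the pseudouridine synthase dyskerin, had 4174 counts (82.4 FPKM) untreated and 280 (5.59 FPKM) with TSA, 8.17-fold lower (7.24 to 9.25). *Nhp2* went from 3325 counts (192 FPKM) to 252 (14.7 FPKM), 7.23-fold lower (6.36 to 8.25). *Gar1* went from 1366 counts (60.9 FPKM) to 127 (5.73 FPKM), 5.89-fold lower (4.91 to 7.13). *Nop10*, for the smallest core protein, went from 2711 counts (213 FPKM) to 525 (41.6 FPKM), 2.83-fold lower (2.58 to 3.11). The *Dkc1* ratio was 2.89-fold (2.47 to 3.38) below that of *Nop10*, the *Nhp2* ratio 2.55-fold (2.18 to 3.01) and the *Gar1* ratio 2.08-fold (1.69 to 2.58). In FPKM *Nhp2* stood at 0.902 of *Nop10* without treatment and at 0.353 of it with TSA. *Dkc1* and *Nhp2* differed by 1.13-fold, with an interval of 0.943 to 1.35.

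Genes for small-subunit assembly had the smallest median difference among the roles. Of 17 members 15 were lower, none was higher, and the median log2 ratio was -1.75. *Emg1*, for a methyltransferase of ribosomal RNA, was the most abundant per length without treatment, with 2646 counts (147 FPKM) against 531 (29.7 FPKM), 2.73-fold lower (2.49 to 3.0). *Wdr43*, a part of the early small-subunit processome, had 4337 counts (72.7 FPKM) against 540 (9.16 FPKM), 4.4-fold lower (4.02 to 4.82). *Noc4l*, which acts with *Nop14* on nucleolar precursors, had the largest difference of this role, 2246 counts against 251, 4.9-fold lower (4.3 to 5.61).

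*Imp3* and *Dcaf13*, both for processome proteins, were the members not called with TMM. *Imp3* had 1368 counts (88.1 FPKM) untreated and 431 (28.1 FPKM) with TSA, 1.74-fold below the untreated level (1.56 to 1.94). *Dcaf13* had 866 counts (32.5 FPKM) and 279 (10.6 FPKM), 1.7-fold below it (1.48 to 1.95). With total counts they were 3.14-fold and 3.07-fold lower and both were called. *Imp4*, whose protein sits with IMP3 in the same particle, had 2783 counts untreated and 387 with TSA and was 3.94-fold lower (3.54 to 4.39). The *Imp4* ratio was 2.27-fold (1.94 to 2.64) below that of *Imp3*.

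Among the other small-subunit members *Bysl* and *Ltv1* stood closest to the threshold. *Bysl* was 2.16-fold lower (1.93 to 2.41) and *Ltv1* 2.22-fold lower (1.96 to 2.52), and both intervals reach below 2. *Tsr1*, which acts on late precursors, was 3.21-fold lower, and *Rrp12*, an export factor, 3.56-fold lower. The large HEAT repeat proteins of the processome, *Utp20* and *Heatr1*, were 2.86-fold and 3.33-fold lower. *Nat10*, for the enzyme that acetylates ribosomal RNA, was 4.76-fold lower and *Nop14* 3.44-fold lower. The processome genes *Utp14a*, *Utp15* and *Utp18* were 3.35-fold, 4.36-fold and 3.68-fold lower.

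Genes for large-subunit assembly were all lower, 15 of 15, with a median log2 ratio of -2.08 and the widest span of any role, 2.47-fold to 16.0-fold. *Rrp1b*, for a nucleolar protein that targets protein phosphatase 1, had 4486 counts (47.3 FPKM) untreated and 154 (1.64 FPKM) with TSA. It was 16.0-fold lower (13.6 to 18.9), the largest difference of the 49, and went from place 33 of the members by FPKM to place 49. *Ppan*, for an early large-subunit factor, had 3174 counts (109.9 FPKM) against 172 (6.02 FPKM), 10.1-fold lower (8.67 to 11.9). *Mrto4*, whose protein holds the place of a stalk protein on the precursor, had 2284 counts (107 FPKM) against 235 (11.1 FPKM), 5.33-fold lower. *Nop2*, for a methyltransferase of large-subunit ribosomal RNA, had 4797 counts (101 FPKM) against 524 (11.2 FPKM), 5.02-fold lower (4.58 to 5.5). *Brix1* was at the other end, with 1665 counts (36.3 FPKM) against 369 (8.14 FPKM), 2.47-fold lower (2.21 to 2.78).

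PES1, BOP1 and WDR12 form the PeBoW complex, which large-subunit maturation needs. *Pes1* had 4137 counts untreated and 657 with TSA and was 3.45-fold lower (3.18 to 3.75). *Bop1* had 3996 counts untreated and 604 with TSA and was 3.63-fold lower (3.33 to 3.96). *Wdr12* had 1620 counts untreated and 208 with TSA and was 4.27-fold lower (3.69 to 4.95). *Bop1* and *Pes1* differed by 1.05-fold with an interval of 0.931 to 1.19, and *Wdr12* and *Pes1* by 1.24-fold (1.05 to 1.47). The ratios of this complex thus differed by up to 1.24-fold from that of *Pes1*. Those of the box H/ACA particle differed by up to 2.89-fold from that of *Nop10*, the gene of that particle with the smallest difference. Apart from *Nop10*, the box H/ACA ratios were closer, with 1.39-fold (1.1 to 1.73) between *Dkc1* and *Gar1*.

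Of the remaining large-subunit members *Nle1*, for a partner of the remodelling ATPase midasin, was 6.35-fold lower on few counts (753 and 65, interval 4.92 to 8.31). *Nip7* was 5.72-fold lower, *Rrs1*, which helps to bring the smallest ribosomal RNA into the precursor, 4.24-fold lower, and *Ebna1bp2* 4-fold lower. *Noc2l* and *Noc3l*, which act as partners, were 4.17-fold and 3.56-fold lower. *Nop16* was 2.81-fold lower (2.49 to 3.16).

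Within each library, the order of the members by FPKM and their share of counts need no scaling between libraries. FPKM divides by the library total, so differences in FPKM between the libraries carry the scaling of total counts. Members spanned 14.8 FPKM (*Noc3l*) to 1267 FPKM (*Npm1*) without treatment, median 63.7, and 1.64 FPKM (*Rrp1b*) to 59.2 FPKM (*Npm1*) with TSA, median 8.61. The median percentile among genes with counts was 91.9 without treatment (15292 genes) and 70.9 with TSA (14958 genes), and the percentile was lower with TSA for all 49. In the top 10% of genes by FPKM stood 31 members without treatment and 2 with TSA, *Npm1* and *Nop10*. The highest members without treatment were *Npm1*, *Ncl*, *Fbl*, *Pa2g4* and *Nop10*, and with TSA *Npm1*, *Nop10*, *Pa2g4*, *Emg1* and *Imp3*. Spearman's rho between the libraries' FPKM was 0.86 over the 49 genes, which share libraries and gene lengths. Members of higher untreated FPKM had lower ratios (rho -0.47 over 49 genes, against -0.34 over all 13027), and the untreated count enters both measures. Gene model length showed rho 0.07 with the log2 ratio.

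**Figure D2:**
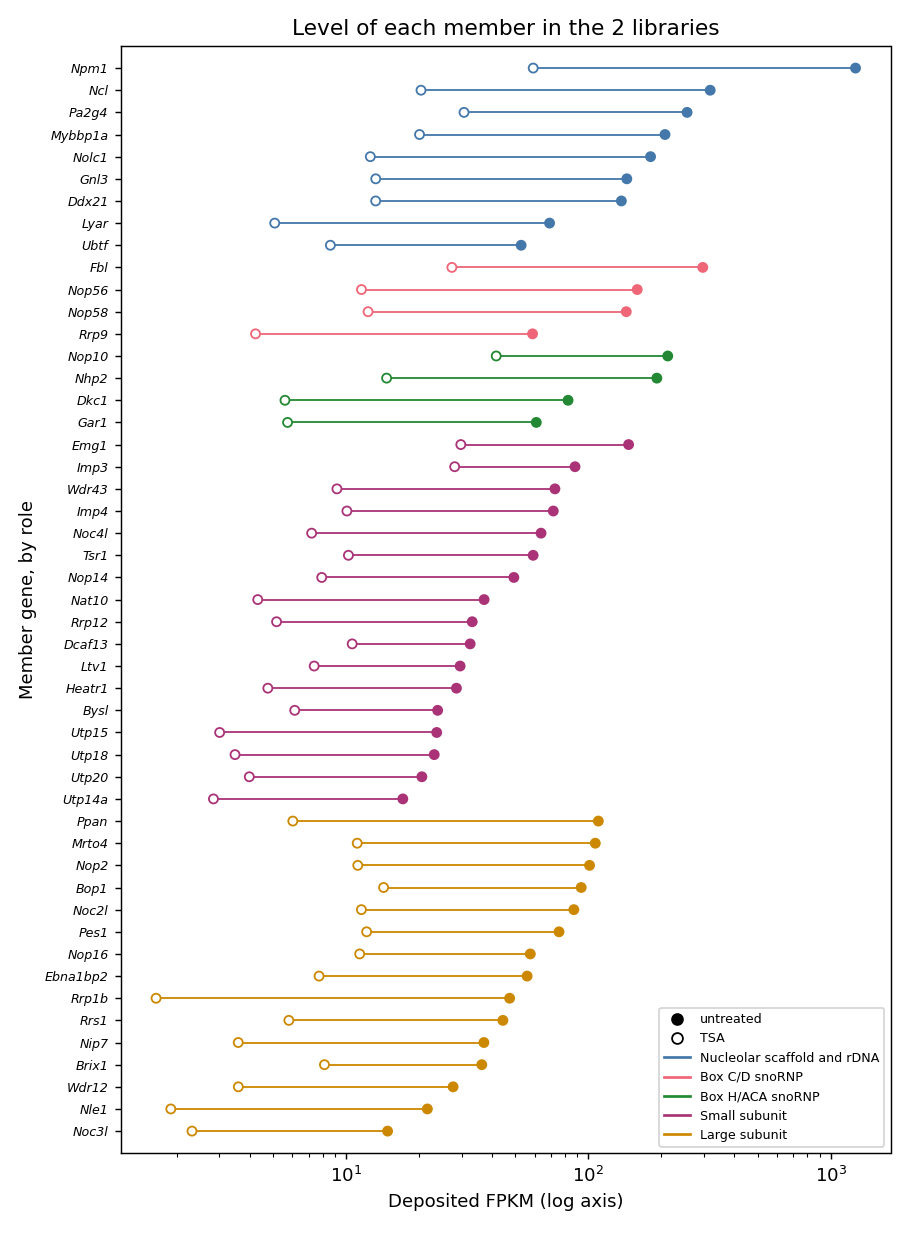
Deposited FPKM of each member (x axis, log scale) in the untreated library (filled points) and the TSA library (open points), grouped and coloured by role (y axis). FPKM is scaled to the library total. In every row the open point lies left of the filled one; Npm1 goes from 1267 to 59.2 FPKM and Rrp1b from 47.3 to 1.64 FPKM.

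All members together took 1.49% of counts in the untreated library (257351 counts, exact Clopper-Pearson interval 1.48% to 1.49%) and 0.147% with TSA (25070 counts, 0.145% to 0.149%). The share was 10.2-fold lower by total counts and 5.62-fold lower with TMM. *Ncl* alone held 18.6% of the members' counts without treatment and 12.1% with TSA. The scaffold group held 56.8% and 43.1% of the members' counts, and the small-subunit group 15.5% and 26.6%. Large-subunit genes stood at 15.6% and 19.2%, box C/D at 7.57% and 6.31%, and box H/ACA at 4.5% and 4.72%.

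**Figure D3:**
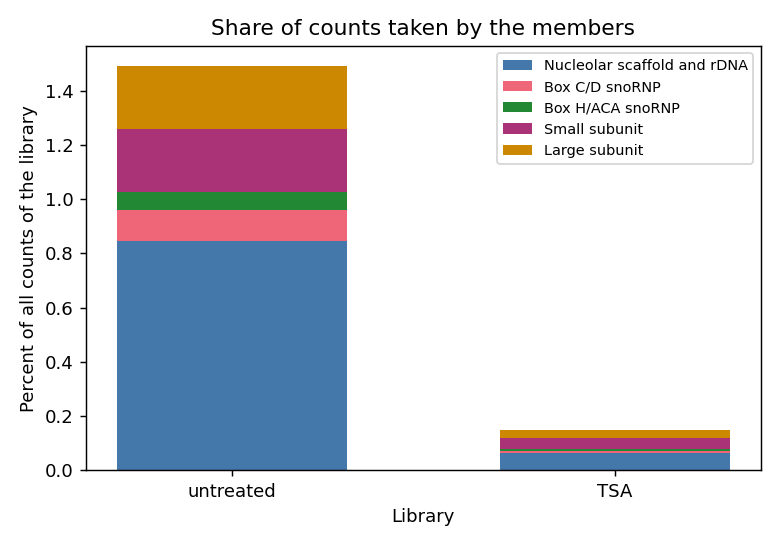
Percent of all counts taken by the members in each library (y axis, from 0), stacked by role for the untreated and the TSA library (x axis). The full bar is 1.49% untreated and 0.147% with TSA, and the scaffold group makes up the largest block of both.

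The rest of the assembly pathway was also lower, with smaller medians, and its counts stand against 27.4% of all genes lower with TMM and 48.7% with total counts. Of 47 other small-subunit factors 34 were lower and 1 was higher (median log2 ratio -1.29), and of 44 other large-subunit factors 34 were lower and none higher (-1.49). Of 11 snoRNP assembly factors 9 were lower (-1.54), of 20 genes of RNA polymerase I and its factors 12 (-1.58), and of 15 genes of the RNA exosome, which trims the precursor, 11 (-1.58). Cytosolic ribosomal proteins, the parts that these factors put together, were lower in 75 of 79 cases (-1.60), and their largest difference was 5.41-fold. None in these last 4 lists was higher. With total counts 45 of 47 other small-subunit factors, 43 of 44 other large-subunit factors and 10 of 11 snoRNP assembly factors were lower. By the same scaling 15 of 20 polymerase genes, 14 of 15 exosome genes and 79 of 79 ribosomal protein genes were lower, and none of the 6 lists held a higher gene. The 4-fold mark was passed by 12.6% of all genes, 16 of 102 other assembly factors, 4 of 79 ribosomal protein genes and 29 of 49 members. It was also passed by 8 of 20 polymerase genes and 5 of 15 exosome genes. The 102 hold 4 of 47 small-subunit, 8 of 44 large-subunit and 4 of 11 snoRNP assembly factors. The count of the 102 together is thus near the share over all genes and that of the ribosomal protein genes below it. Those of the polymerase, exosome and snoRNP assembly lists are above that share, as is that of the members. No test of these lists against each other was possible with 1 library per group, and the lists were chosen with results known.

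*Cirh1a* and *Rrp7a*, the most abundant of the other small-subunit factors, were 4.81-fold and 3.27-fold lower. *Rcl1* was the sole higher gene of that list, with 2911 counts untreated and 3394 with TSA, 2.13-fold higher with TMM (2.02 to 2.24) and 1.18-fold with total counts, where it was not called. Of the other large-subunit factors *Rsl1d1* was 4.38-fold lower, and *Gltscr2* was 1.68-fold below the untreated level and not called with TMM. With total counts *Gltscr2* was 3.025-fold lower and was called. *Ruvbl2*, for an ATPase that helps to load box C/D particles, was 8.04-fold lower. Of the RNA polymerase I list the most abundant, *Polr2e* and *Polr2f*, code for subunits shared with other polymerases and were 4.45-fold and 3.35-fold lower. *Exosc5* and *Exosc2* of the exosome were 2.3-fold and 4.85-fold lower. The ribosomal protein genes *Rplp1* and *Rpl41* were 3.79-fold and 2.52-fold lower.

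**Figure D4:**
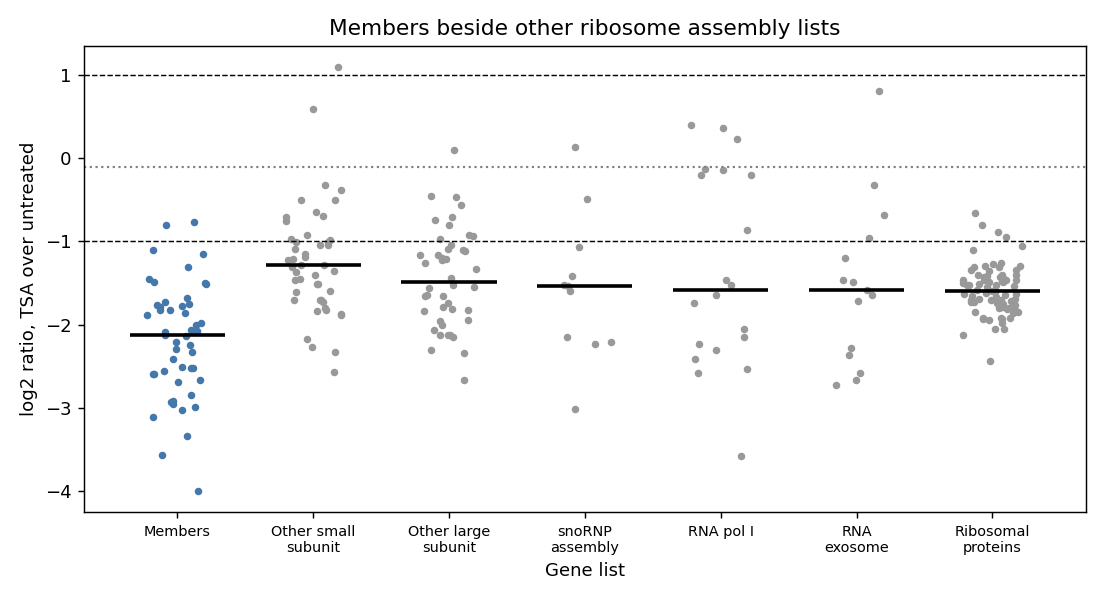
Log2 ratio of TSA over untreated with TMM (y axis) for each tested gene of the members and of 6 lists of the same pathway (x axis; horizontal scatter within a list has no meaning). Thick bars are medians, dashed lines mark 2-fold differences and the dotted line the median of all genes tested. The members' median is -2.13, those of the other lists lie between -1.29 and -1.60.

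Some of these genes share sequence with a neighbour. In GENCODE M21 exons of 12 members overlap those of another listed gene on the opposite strand, and those of 4 do so by at least 100 bases. Whether counting used strand is not stated in the labels or files, so reads from the overlap cannot be assigned. *Tsr1* overlaps *Srr* by 1159 bases, and *Srr* was 9.06-fold higher with TSA (361 and 1792 counts). *Mybbp1a* overlaps *Spns2* by 131 bases, and *Spns2* was 5.12-fold higher (228 and 640 counts). *Bysl* overlaps *Ccnd3* by 361 bases, itself 3.96-fold lower, and *Noc2l* overlaps *Samd11* by 598 bases, which had 8 and 3 counts.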

How the data were processed

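PolyA RNA from mouse liver was sequenced in 2 libraries, 1 per group. The deposited counts are whole, unscaled reads per gene symbol. Dividing the deposited FPKM out of the counts gave the same gene model length in both libraries, to 0.1 base, for 14271 of 14271 genes detected in both. The submitters' processing notes name Trimmomatic, HISAT2, Bowtie2 and DESeq without roles or versions; for build, annotation and counting, "not given in the sources used here" applies.

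Scaling used TMM (edgeR 4.0.16, R 4.3.3; factors 1.34 untreated, 0.744 TSA), with total counts, upper quartiles and DESeq2 1.42.0 size factors as alternatives, beside other fold thresholds, count minimums, a prior count of 2 and FPKM with 0.1 added. Genes with at least 20 summed counts were tested. Intervals are exact and conditional (Clopper-Pearson; between 2 genes, of the odds ratio; scipy 1.17.1). Genes at 0 took a floor of 3 counts. The calling was tested on simulated counts with counting error only and few genes changed, as many up as down. Such data cannot check variation between animals, nor the scaling where many genes differ.

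Members and lists were chosen with earlier results of these data known. By rule, counts are given for the 3 members of highest untreated FPKM in each role, its largest and smallest ratio, members not called, and 3 complexes; of the other lists, genes called higher and the 2 most abundant. Counts of *Imp4* and *Nle1* were added after their values were seen.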

Additional observations from a re-analysis of the deposited data

How the results depend on the processing

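All 49 members were below the untreated level under every scaling tried, with the FPKM values and with the prior count, and none was called higher. The count of members called lower was 47 with DESeq2 size factors, upper quartiles, the prior count, no count minimum and a minimum of 100, 49 with total counts, FPKM or a 1.5-fold threshold, and 45 where the interval bound itself had to reach 2-fold. A 4-fold threshold left 29. The median log2 ratio moved from -2.13 to -2.98 with total counts, as that of all genes did from -0.11 to -0.96, because the scaling shifts every gene alike. Without *Ncl* and *Npm1* the share of counts was 0.995% untreated and 0.119% with TSA. *Dcaf13* had the smallest and *Rrp1b* the largest difference under each scaling, 3.07-fold and 28.8-fold with total counts. Depth does not limit the calls of the members, the scarcest of which had 818 summed counts; the lack of replicates does limit what they say about TSA.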

Other observations

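Some members have a close relative outside the list, and the relatives differed in how far they were from the untreated level. These pairs were chosen after values were seen, ratios between 2 genes do not depend on scaling, and reads of paralogs may be split between copies. *Ddx50*, the paralog of the helicase gene *Ddx21*, was read 867 times untreated and 991 times with TSA; its ratio was 2.09 with TMM and 1.16 with total counts. The *Ddx21* ratio was 11.9-fold (10.7 to 13.4) below it, and in FPKM *Ddx21* went from 8.26 times to 0.692 times the level of *Ddx50*. *Rrp1*, the paralog of *Rrp1b*, had 2864 and 894 counts, 1.76-fold below the untreated level and not called with TMM, and lower with total counts. The *Rrp1b* ratio was 9.09-fold (7.6 to 10.9) below it.

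Other pairs were closer. *Npm3*, a relative of *Npm1*, had 1745 and 236 counts and was 4.05-fold lower, so the *Npm1* ratio was 2.93-fold (2.52 to 3.39) below it. *Gnl3l*, a relative of *Gnl3*, had 2128 and 370 counts and was 3.15-fold lower, a difference of 1.91-fold (1.64 to 2.22) between the pair. *Utp14b* had 130 and 47 counts and stood 1.52-fold below the untreated level, a difference of 2.21-fold (1.5 to 3.21) from *Utp14a*. *Npm2*, with 14 and 3 counts, was too scarce to place, and *Fbll1* had no counts in either library.

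*Tcof1*, for treacle, a nucleolar partner of RNA polymerase I and UBF, had the lowest ratio of the polymerase list, with 4097 and 188 counts and an 11.9-fold lower level. It is named after its value was seen, as are *Taf1b* and *Znrd1* of the same list, which stood at 1.31-fold and 1.28-fold of the untreated level with TMM, at 0.725-fold and 0.71-fold with total counts, and were not called by either. In the exosome list *C1d* stood at 1.74-fold with TMM and 0.964-fold with total counts.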
